A study of Homo sapiens with 6 samples.

Results

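The genes described here encode nucleolar factors that build ribosomes: 60 symbols were listed, and 52 of them were read by at least 1 probe set annotated to that symbol alone, among 19775 genes read in all. They fell into 26 small-subunit factors, 16 large-subunit factors, 6 proteins of the small nucleolar ribonucleoproteins (snoRNPs) and 4 other nucleolar genes. The 8 symbols not analysed here were DDX47, BOP1, PPAN, GNL3, DDX18, EBNA1BP2, NOP56 and DKC1, and for 5 of them (all but GNL3, DDX18 and EBNA1BP2) the platform annotation gives probe sets that name other genes as well. RNA came from MM1S, an established human line of multiple myeloma, which is a cancer of antibody-secreting plasma cells. The 3 hypoxia arrays carried RNA of cells exposed to hypoxia for 24 h, and the 3 normoxia arrays RNA of cells labelled normoxia. The same treatment text stands on all 6 arrays, and the sources used here do not give the oxygen level. Replicates are numbered 0 to 2 in the labels, and values are listed in that order. Nothing says that they came from separate cultures, so the p-values reflect the spread among these arrays alone, and that spread may be technical.

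Ribosomes are made in the nucleolus, where RNA polymerase I transcribes a long precursor RNA that is folded, modified and cut while proteins join it. Box C/D and box H/ACA snoRNPs methylate and pseudouridylate that RNA, the small-subunit processome forms around the precursor of the 18S RNA, and a separate series of particles carries the precursors of the large-subunit RNAs. Assembly is costly for the cell, and the genes of its factors are known as growth genes, many of them bound by the transcription factor MYC in fast-growing cells.

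Nearly every assembly factor gene read was lower in hypoxia. Of the 52, 47 fell, 2 rose (TSR1 and NOC3L) and 3 did not pass (NPM1, UTP3 and NOB1), in limma with Benjamini-Hochberg adjustment over all genes at an adjusted p of 0.05. Over all genes 20.6% fell and 16.9% rose by the same rule. The median log2 change of the 52 genes, taken as log2(intensity + 16) in hypoxia minus normoxia, was -0.85, from -2.54 for LYAR to 0.62 for TSR1, and the median over all genes was -0.00016. Falls of at least 2-fold (log2 change of -1 or lower) were seen in 22 of the 52, against 4.75% of all genes. For 48 genes every hypoxia array lay below every normoxia array, as for 25.8% of all genes, for 2 genes every hypoxia array lay above, as for 22.1%, and for NPM1 and NOB1 the arrays overlapped.

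**Figure D1:**
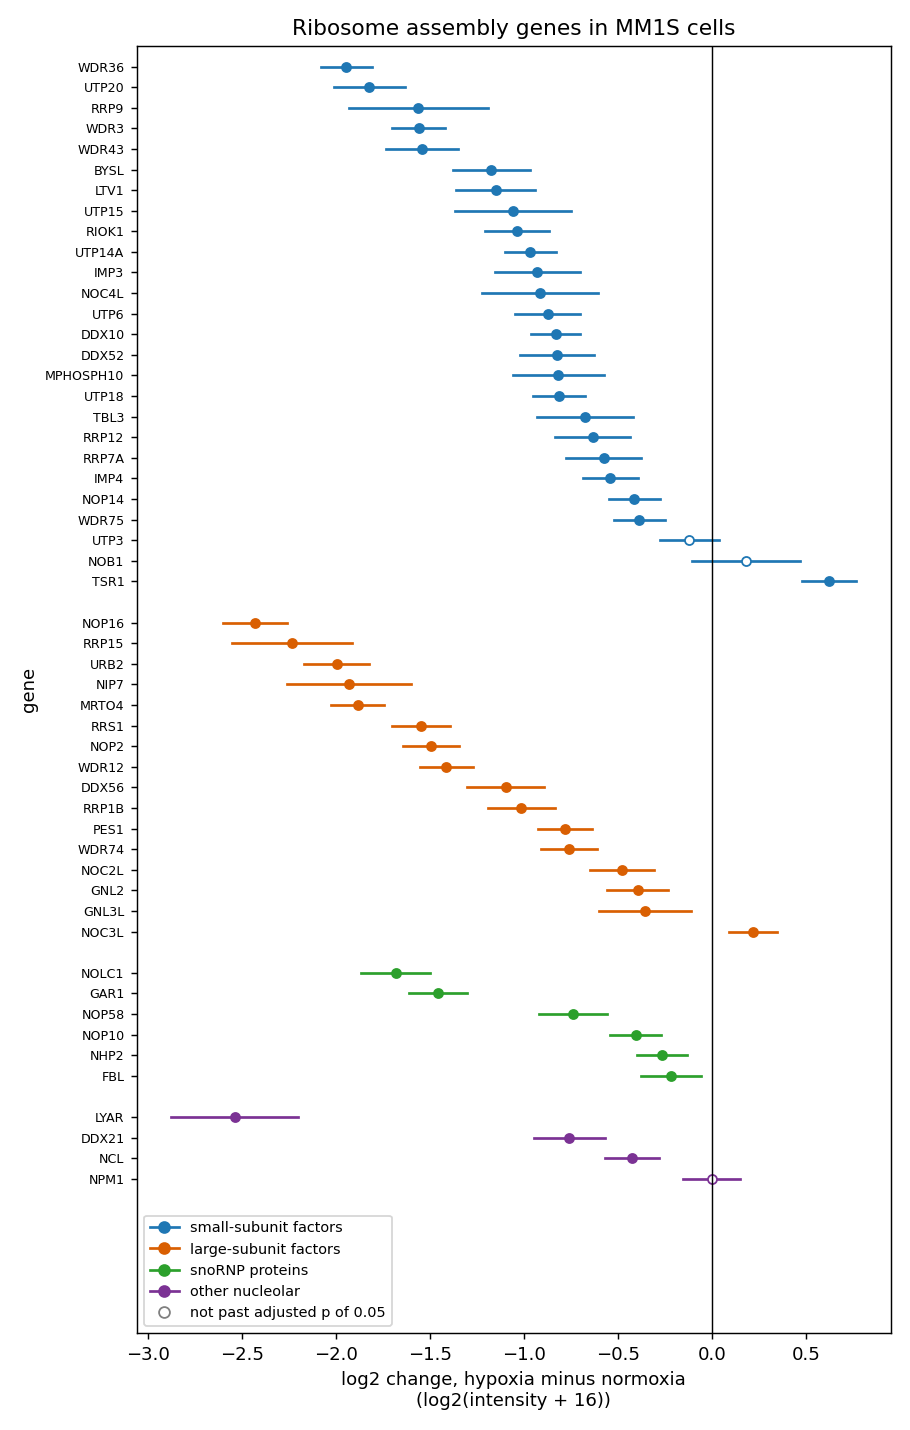
Log2 change, hypoxia minus normoxia, of the 52 assembly factor genes on the log2(intensity + 16) scale, with 95% confidence intervals from limma over 6 arrays, by role and ordered by change. Filled points passed an adjusted p of 0.05: 47 lie left of 0 and 2 right of it, and the 3 open points did not pass.

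The level of the list differed between the conditions far more than between arrays of a condition. The median intensity over the 52 genes was 853, 839 and 855 on the hypoxia arrays and 1941, 1885 and 1887 on the normoxia arrays. The arrays themselves were alike in overall signal, with a median over all probe sets of 57.59 to 60.13 in hypoxia and 54.95 to 56.77 in normoxia. Intensities are relative to the signal of each array, so that fewer expressing cells and less of an RNA per cell cannot be told apart. All 8 listed plasma cell markers were read, with a summed intensity of 41274 to 43026 in hypoxia and 42834 to 44440.3 in normoxia. Of these, 4 fell (log2 changes of -0.71 for CD38, -0.34 for SLAMF7, -0.30 for SDC1 and -0.26 for MZB1), XBP1 rose by 0.22, and IRF4, PRDM1 and TNFRSF17 did not pass. Their part in the changes of the assembly genes was not tested. Summed T cell (5 of 5 read), myeloid (3 of 5), stromal (5 of 5) and epithelial (5 of 5) markers stayed under 500 on every array, and among the erythroid markers (3 of 5 read) the globin gene HBB was at a mean of 1125 in hypoxia and 1751 in normoxia.

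Promoter sequences were set beside the changes because so many of the genes moved together. RefSeq windows of 300 bases (GRCh38.p14, from 250 bases before an annotated start to 50 after it) were available for 50 of the 60 listed genes and for 44 of the 52 read. The letters CACGTG, which read the same on both strands and form the E-box to which MYC and its partner MAX bind, occurred in a window of 19 of these 44 genes (43.2%). They occurred in 1653 of 15340 other genes read (10.8%), and in 7.26% of all 35116 windows of this length, a count by window. The other genes read were dimmer. Their median of the mean log2 intensity was 8.44 with the letters and 7.20 without. For the assembly factors it was 10.35 and 10.24. The part of brightness in the shares of promoter letters was not tested. By role the share was 9 of 23 small-subunit genes, 5 of 13 large-subunit genes, 3 of 4 snoRNP genes and 2 of 4 other nucleolar genes. It was 3 of 25 for the ribosomal protein genes described further on. The core letters of the hypoxia response element, ACGTG or GCGTG on either strand and outside a CACGTG, were found in 34 of the 44 (77.3%) and in 59.1% of the other genes read, or in 45.4% of all windows. A match is a description of letters, and no binding was measured.

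The 250 bases before the first-listed start are given for the gene with the smallest adjusted p among those with a window in each of the 3 main roles (WDR36, NOP16 and GAR1) and for the brightest gene that did not pass (NPM1). They show the sequences in front of genes at both ends of the response, 5′ to 3′ on the strand of the gene, and capitals mark ACGTG or GCGTG on either strand. The regions are chr5:111092098-111092347 on the plus strand for WDR36, chr5:176388599-176388848 on the minus strand for NOP16, chr4:109815260-109815509 on the plus strand for GAR1 and chr5:171387599-171387848 on the plus strand for NPM1.
WDR36: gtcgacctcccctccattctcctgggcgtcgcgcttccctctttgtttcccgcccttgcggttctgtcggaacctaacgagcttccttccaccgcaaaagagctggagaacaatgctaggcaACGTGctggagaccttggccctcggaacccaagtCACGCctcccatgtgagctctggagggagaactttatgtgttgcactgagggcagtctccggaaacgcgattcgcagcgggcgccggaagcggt
NOP16: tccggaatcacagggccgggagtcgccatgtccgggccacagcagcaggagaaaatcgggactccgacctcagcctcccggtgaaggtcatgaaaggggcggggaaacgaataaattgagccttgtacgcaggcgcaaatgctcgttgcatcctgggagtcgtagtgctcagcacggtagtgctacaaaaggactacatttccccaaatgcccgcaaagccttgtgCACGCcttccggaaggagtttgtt
GAR1: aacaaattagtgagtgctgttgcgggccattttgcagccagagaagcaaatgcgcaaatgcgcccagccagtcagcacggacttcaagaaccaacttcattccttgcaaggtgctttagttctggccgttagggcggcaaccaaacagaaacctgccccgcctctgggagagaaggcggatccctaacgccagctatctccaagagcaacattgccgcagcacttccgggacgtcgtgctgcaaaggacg
NPM1: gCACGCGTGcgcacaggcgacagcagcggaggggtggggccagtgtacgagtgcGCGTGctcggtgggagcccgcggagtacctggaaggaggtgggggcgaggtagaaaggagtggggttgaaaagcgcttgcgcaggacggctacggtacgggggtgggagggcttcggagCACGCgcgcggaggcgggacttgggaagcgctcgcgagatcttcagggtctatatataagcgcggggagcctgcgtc
None of these 4 stretches holds CACGTG. The upstream stretch of WDR36 has 2 core matches, that of NOP16 has 1, that of GAR1 has 0 and that of NPM1, whose level did not pass, has 4. GAR1 does hold a CACGTG, in the window of its second annotated start.

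For the 8 genes with values on every array below whose first-listed window holds CACGTG, the 28 bases around the site nearest to the start are given, 5′ to 3′ on the strand of the gene, with the site in capitals. They lie at chr1:19251808-19251835 on the plus strand for MRTO4, chr12:101280084-101280111 on the plus strand for UTP20, chr2:28894659-28894686 on the plus strand for WDR43 and chr6:41921516-41921543 on the plus strand for BYSL. Those of the others are chr22:30591881-30591908 on the minus strand for PES1, chr15:34343131-34343158 on the minus strand for NOP10, chr19:39846357-39846384 on the minus strand for FBL and chr10:94362904-94362931 on the minus strand for NOC3L.
MRTO4: gtcttccgccgCACGTGgattcagcgcg
UTP20: ttttttccgtcCACGTGacccactcagg
WDR43: gcacggacgaaCACGTGgctgcagcggg
BYSL: tcttcagtcccCACGTGcgatccttccc
PES1: ccttggcagggCACGTGcgggaggaagt
NOP10: aaattgacgaaCACGTGacgcggtcggg
FBL: gcgctcttttcCACGTGcgaaagccccg
NOC3L: agggacttcggCACGTGtgtcattcccc
Of these 8 sites, 3 are preceded by C, 3 by G and 2 by A. Over all first-listed windows of the genes read, 12 of 19 CACGTG sites (63.2%) of assembly factors lay in the 50 bases after the start, as did 147 of 1517 sites (9.69%) of the other genes. The 19 genes with CACGTG in a window had a median log2 change of -0.97, and 18 of them fell. The 25 genes with a window and no CACGTG had a median of -0.83, and 21 of them fell, among them WDR36 and NOP16, whose upstream sequences stand above.

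**Figure D2:**
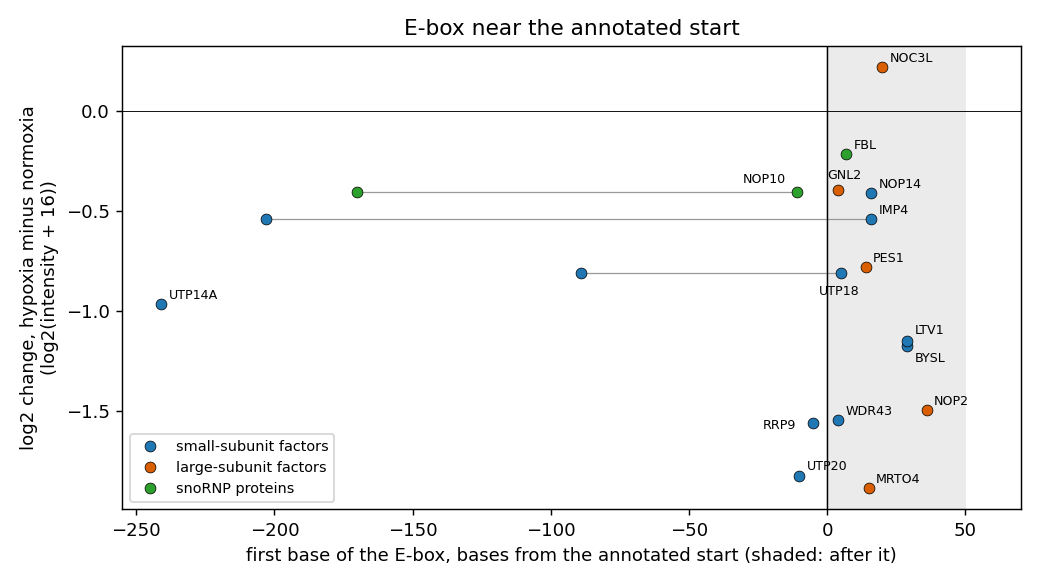
Place of the E-box (CACGTG) in the first-listed promoter windows (horizontal, bases from the annotated start; the shaded band is the 50 bases after it) against the log2 change of the gene, taken as log2(intensity + 16) in hypoxia minus normoxia (vertical). Each point is 1 site, lines join sites of the same gene, and 12 of the 19 sites lie in the shaded band.

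Small-subunit factors fell almost throughout. Of 26 genes read, 23 fell, 1 rose and 2 did not pass, with a median log2 change of -0.85 and falls of at least 2-fold in 9. WDR36, WDR3, WDR43 and UTP15, which encode beta-propeller proteins of the UTP-A and UTP-B complexes that open the assembly of the processome, were among these 9. WDR36, a UTP-B subunit, had intensities of 606, 619.6 and 579 in hypoxia, against 2340.4, 2383 and 2353 in normoxia. Its levels differed by 3.85-fold (log2 change -1.94, limma adjusted p = 2.07e-05, 95% confidence interval -2.08 to -1.81), while arrays of the same condition lay close together. Its second probe set, at 482.6 ± 29.4 in hypoxia against 811 ± 19.7 in normoxia (SD, n = 3 each), fell by 0.73, and the mean of both gave a 2.53-fold difference (log2 change -1.34). WDR3, another UTP-B subunit, was at 472, 464 and 487 in hypoxia, against 1424, 1479.6 and 1382 in normoxia (log2 change -1.56, limma adjusted p = 3.30e-05). The other listed UTP-B genes fell too, UTP6 by 0.87, UTP18 by 0.81 and TBL3 by 0.67 on the log2 scale.

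Within UTP-A, WDR43 was at 760.4, 737 and 747 in hypoxia, against 2389, 2015 and 2243 in normoxia (log2 change -1.54, limma adjusted p = 6.26e-05). Its normoxia arrays were more spread than its hypoxia arrays, and the groups did not overlap. UTP15 fell by 1.06 and WDR75, the brightest of the 3, by 0.38 on the log2 scale. UTP20, a very large helical repeat protein of the processome, was at 217, 234 and 211 in hypoxia, against 839, 865 and 758 in normoxia (log2 change -1.82, limma adjusted p = 4.07e-05). By their brightest probe sets, genes of subunits of one complex thus spanned a wide range of changes. Probe sets of 1 gene also differed, with -1.94 and -0.73 for WDR36 and -1.06 and -1.60 for UTP15. Differences among the genes and among probe sets therefore cannot be told apart here.

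The U3 snoRNP guides the first cuts of the precursor, and the genes of its own proteins fell too. RRP9, which binds the U3 RNA, fell by 1.56 on the log2 scale, to 61.0 ± 13.3 in hypoxia against 210.01 ± 26.4 in normoxia (SD, n = 3 each). Its hypoxia level lies near the array medians, where background may make up much of the signal, and the size of its change is uncertain. IMP3, MPHOSPH10 and IMP4, which form one complex at the U3 RNA, fell by 0.93, 0.82 and 0.54. NOP14 and NOC4L, whose yeast counterparts bind each other in the processome, fell by 0.41 and 0.91, and NOC4L was dim, at 91.04 ± 14.6 in hypoxia against 185 ± 17.9 in normoxia (SD, n = 3 each). The DEAD-box helicase genes DDX10 and DDX52 fell by 0.83 and 0.82, UTP14A, in yeast an activator of a processome helicase, by 0.97, and RRP7A by 0.57.

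Among genes for the late, partly cytoplasmic steps of small-subunit maturation, BYSL, LTV1, RIOK1 and RRP12 fell and NOB1 did not pass. BYSL, which stays with the particle from the nucleolus to its export, was at 661, 555 and 591 in hypoxia, against 1317, 1438 and 1374 in normoxia (log2 change -1.17, limma adjusted p = 0.000167). By its brightest probe set LTV1, which holds back the final folding of the subunit, fell by 1.15, and the kinase gene RIOK1 by 1.03. RRP12, which acts in export, fell by 0.63 by its brightest probe set. With the mean of probe sets LTV1 was at -0.44 (limma adjusted p = 0.00228), and RRP12, at -0.03, did not pass (0.795). NOB1, the endonuclease that makes the last cut of the 18S RNA, was at 1568, 1304 and 1192 in hypoxia, against 1269, 1179 and 1109.8 in normoxia. Its arrays overlapped, and it did not pass (log2 change 0.18, limma adjusted p = 0.297, 95% confidence interval -0.11 to 0.47). UTP3, a processome protein, was at 3056, 2932 and 2907 in hypoxia, against 3408, 3081 and 3190.5 in normoxia, with no overlap, yet did not pass (log2 change -0.12, limma adjusted p = 0.209).

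TSR1, a GTPase-like protein that blocks translation factors from the unfinished small subunit, gave opposite answers from its 4 probe sets. The brightest was at 2269, 2129.5 and 2296 in hypoxia, against 1405, 1459.7 and 1461 in normoxia, a rise of 0.62 on the log2 scale (limma adjusted p = 0.000459). The other 3 fell, with log2 changes of -1.71, -1.53 and -1.02 (limma p adjusted over the 41091 probe sets = 5.97e-05, 6.45e-05 and 0.00157). The second of the 4 by brightness averaged 544 ± 19.2 in hypoxia and 1820.2 ± 136 in normoxia (SD, n = 3 each). Averaged over its probe sets TSR1 fell by 0.91 (limma adjusted p = 8.87e-05), so that its rise rests on 1 of 4 probe sets.

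**Figure D3:**
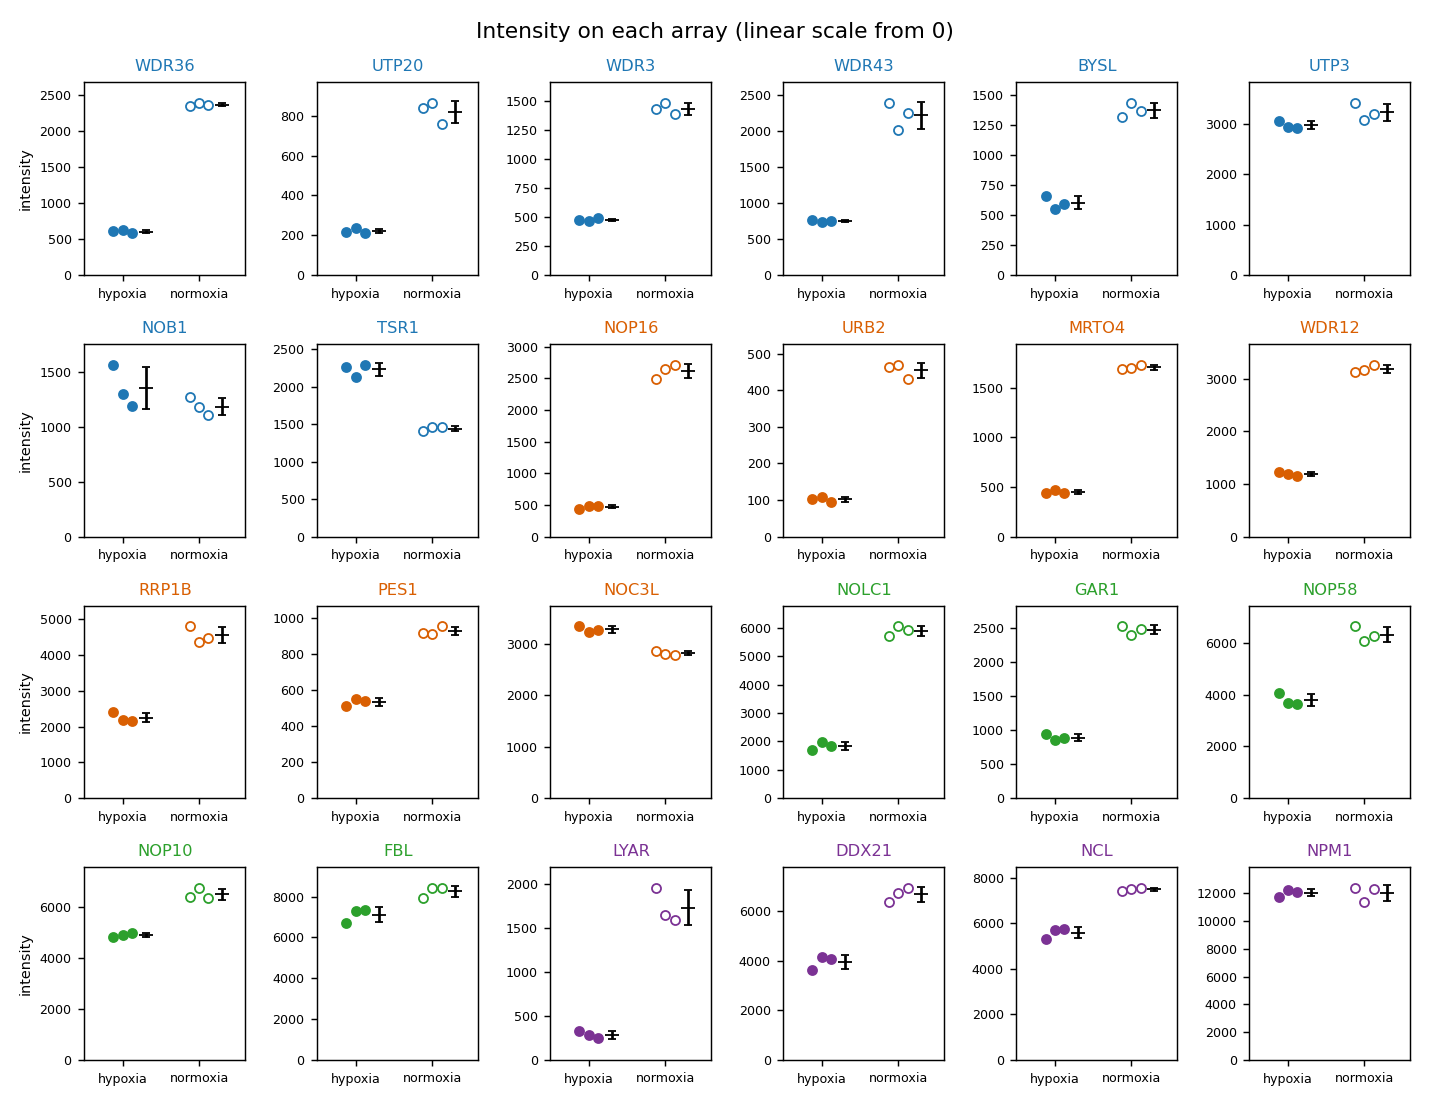
Intensity on each array (linear axis from 0) of the 24 assembly factor genes whose values per array are given in the text, with hypoxia left (filled) and normoxia right (open), coloured by role as in the plot of changes. The bar beside each group is its mean ± SD over 3 arrays; the groups are apart in all panels but those of NOB1 and NPM1.

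Large-subunit factors had the lowest median of the 3 main roles. Of 16 genes read, 15 fell and 1 rose, with a median log2 change of -1.25 and falls of at least 2-fold in 10. NOP16, a nucleolar protein of early large-subunit particles, was at 442, 485 and 491 in hypoxia, against 2494, 2640.4 and 2717 in normoxia. That is a 5.39-fold difference (log2 change -2.43, limma adjusted p = 2.07e-05, 95% confidence interval -2.60 to -2.26). Its second probe set fell by 2.74, and 2 dim ones, at 67.6 and 62.5 in normoxia, did not pass. The mean of its 4 probe sets gave a 2.19-fold difference (log2 change -1.13).

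RRP15 and NIP7, whose yeast counterparts act on large-subunit precursors, had log2 changes of -2.23 and -1.93, and both fell. MRTO4, which holds the place of the ribosomal stalk protein on the immature subunit, was at 439, 473 and 440.01 in hypoxia, against 1686, 1695 and 1733 in normoxia (log2 change -1.88, limma adjusted p = 2.25e-05). URB2, in yeast a protein required early in the pathway, was at 101, 109 and 95.7 in hypoxia, against 462, 470.03 and 429.96 in normoxia (log2 change -2.00, limma adjusted p = 3.02e-05). For both genes the groups stood far apart relative to the spread of their arrays. RRS1, which helps to bring in the 5S RNA, and NOP2, a methyltransferase of the 28S RNA, fell by 1.55 and 1.49.

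The PeBoW complex of PES1, BOP1 and WDR12 is needed for an internal cut that separates the large-subunit RNAs. WDR12 was at 1234, 1182 and 1151 in hypoxia, against 3135, 3169 and 3271 in normoxia (log2 change -1.41, limma adjusted p = 3.86e-05). PES1 fell by less, at 513, 552 and 539.6 in hypoxia, against 919.6, 913 and 955 in normoxia (log2 change -0.78, limma adjusted p = 0.000196). The intervals of the 2 changes, -1.55 to -1.27 for WDR12 and -0.92 to -0.64 for PES1, did not meet, and BOP1 was not analysed here. The second probe set of PES1, at 71.6 in hypoxia and 67.9 in normoxia, did not pass (log2 change 0.047). With the mean of probe sets PES1 was at -0.37 (limma adjusted p = 0.0285) and WDR12 at -1.50 (2.59e-05). Differences between the genes and between probe sets cannot be told apart here. The helicase gene DDX56 fell by 1.10, and WDR74, which works with a remodelling ATPase, by 0.76.

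RRP1B, a nucleolar partner of protein phosphatase 1, was at 2395, 2176 and 2162 in hypoxia, against 4799, 4364 and 4469 in normoxia (log2 change -1.01, limma adjusted p = 0.000168). Its other, dimmer probe set rose by 0.57, to 240.1 ± 3.37 in hypoxia against 156 ± 9.97 in normoxia (SD, n = 3 each; limma p adjusted over the 41091 probe sets = 0.00140), and the mean of both was -0.22 (limma adjusted p = 0.0428). The GTPase genes GNL2 and GNL3L fell by 0.39 and 0.35, and the call of GNL3L was lost without hypoxia replicate 1 or without any 1 of the normoxia arrays (limma adjusted p = 0.0508 to 0.105). NOC2L and NOC3L belong to a family of intranuclear transport factors of the large subunit and did not move together. NOC2L fell by 0.48, whereas NOC3L was at 3341, 3221 and 3272 in hypoxia, against 2855, 2809 and 2775 in normoxia (log2 change 0.22, limma adjusted p = 0.0191). NOC3L has 1 probe set, and its call was lost without hypoxia replicate 2 (limma adjusted p = 0.0628), normoxia replicate 1 (0.0586) or normoxia replicate 2 (0.0700), and with median centring (0.0949).

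Proteins of the snoRNPs ranged from large to barely detectable falls. All 6 genes read passed as lower, with a median log2 change of -0.57. NOLC1, a chaperone that escorts both kinds of snoRNP to the nucleolus, was at 1697, 1969.8 and 1829 in hypoxia, against 5718, 6063 and 5926 in normoxia (log2 change -1.68, limma adjusted p = 4.46e-05). Both of its other probe sets fell as well, with log2 changes of -2.23 and -1.67.

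In the box H/ACA particle, which makes pseudouridine, the subunit genes differed among themselves. GAR1 was at 943, 855 and 883 in hypoxia, against 2533, 2406 and 2499 in normoxia (log2 change -1.46, limma adjusted p = 4.17e-05). NOP10, its smallest protein, was at 4823, 4908 and 4969.7 in hypoxia, against 6384, 6746 and 6366 in normoxia (log2 change -0.41, limma adjusted p = 0.00205). NHP2 fell by 0.27, and DKC1, the catalytic subunit, was not analysed here. The intervals of GAR1, -1.61 to -1.30, and NOP10, -0.54 to -0.27, were far apart, although both sets of arrays were tight. GAR1, NOP10 and NHP2 have 1 probe set each, so differences among the genes and among probe sets cannot be told apart.

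In the box C/D particle, which methylates ribose, NOP58 was at 4057, 3663 and 3632 in hypoxia, against 6644, 6055 and 6250.4 in normoxia (log2 change -0.74, limma adjusted p = 0.000552). FBL, the methyltransferase itself, was at 6693, 7301 and 7335 in hypoxia, against 7946, 8425 and 8399 in normoxia (log2 change -0.22, limma adjusted p = 0.0452, 95% confidence interval -0.38 to -0.06). Although its groups did not overlap, the call of FBL was lost when any 1 of the 6 arrays was left out (limma adjusted p = 0.0617 to 0.129), with a pseudocount of 1 (0.0547) and after quantile normalization (0.125).

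The 4 other nucleolar genes held both the largest and the smallest change of the list. LYAR, a nucleolar growth protein that acts in precursor RNA processing, was at 333, 278 and 244 in hypoxia, against 1952, 1642 and 1586 in normoxia. That is a 5.81-fold difference (log2 change -2.54, limma adjusted p = 7.41e-05, 95% confidence interval -2.87 to -2.20), and its second probe set fell by 2.49. DDX21, a helicase that links RNA polymerase I transcription to snoRNP action, was at 3625, 4144 and 4047 in hypoxia, against 6345, 6726 and 6926 in normoxia (log2 change -0.76, limma adjusted p = 0.000592).

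NCL, or nucleolin, one of the most abundant nucleolar proteins, was at 5307, 5704 and 5737 in hypoxia, against 7413, 7513 and 7550.25 in normoxia (log2 change -0.42, limma adjusted p = 0.00209). With the mean of its 2 probe sets, the second of which was at only 19.9 in hypoxia and 23.2 in normoxia, the call was lost (log2 change -0.27, limma adjusted p = 0.0611). NPM1, the nucleolar chaperone nucleophosmin, was at 11747, 12240.3 and 12067 in hypoxia, against 12381, 11375 and 12334 in normoxia. Its arrays overlapped (log2 change -0.00055, limma adjusted p = 0.998, 95% confidence interval -0.15 to 0.15), and its 2 other probe sets, nearly as bright, were at -0.037 and -0.060 and did not pass.

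Other probe sets of the same genes give a second reading that the choice of the brightest did not use, although from the same RNA. Of the 52 genes, 29 had several probe sets, and among their 45 others 27 fell, 1 rose and 17 did not pass, against 18.0% lower and 15.8% higher over all 41091 single-symbol probe sets. Of the 26 others with a mean normoxia intensity of 100 or more, 22 fell, 1 rose (that of RRP1B) and 3 did not pass (2 of NPM1 and 1 of RRP12). A limit on the normoxia level favours falls among these 26, so their share of falls does not measure agreement between probe sets. The limit kept a probe set of RRP15 that fell, with means of 62.8 in hypoxia and 270 in normoxia. It left out the other probe set of LTV1, which averaged 104 in hypoxia and 83.7 in normoxia and did not pass. RRP12 had 4 other probe sets, none of which passed, and averaged over all 5 its log2 change was -0.03 (limma adjusted p = 0.795) against -0.63 for the brightest. With the mean of probe sets LTV1 moved to -0.44, from the brightest probe set's -1.15.

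**Figure D4:**
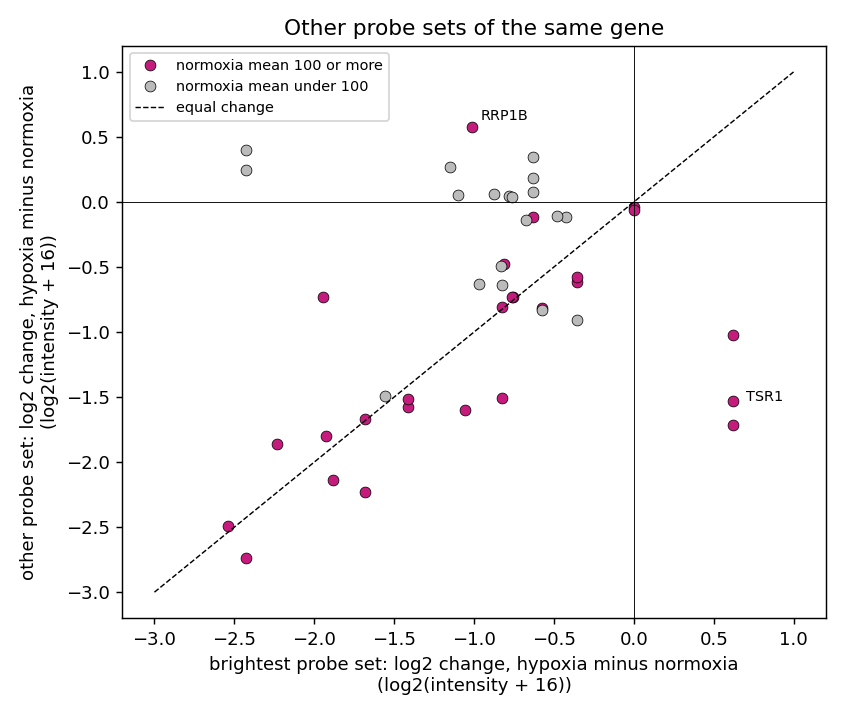
Log2 change of each other probe set of a gene (vertical) against that of its brightest probe set (horizontal), taken as log2(intensity + 16) in hypoxia minus normoxia, for the 29 genes with several. Of the 19 points under a normoxia mean of 100 (grey), 14 did not pass. Of the 26 brighter ones, 22 fell, and the 3 of TSR1 and the 1 of RRP1B lie on the opposite side of 0 from their brightest probe set. A limit on the normoxia level favours falls among the brighter points.

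Brightness differed by role, so the roles were also read at like brightness. Among other genes the 5th percentile of the change was -0.62 at a mean log2 intensity of 12 and above, but -1.36 between 8 and 10. The median normoxia intensity was 1510.01 for small-subunit, 1735 for large-subunit and 6408 for snoRNP genes. Between mean log2 intensities of 8 and 10, all 16 assembly factors fell, with a median change of -1.12, and 37.6% of 3727 other genes fell, with a median of -0.06. Between 10 and 12, 21 of 25 fell (median -0.83), against 37.0% of 3436 other genes (median -0.04). At 12 and above 6 of 7 fell (median -0.41), against 30.0% of 916 other genes (median -0.05), and below 8 all 4 fell (median -1.24), against 9.20% of 11644 other genes (median 0.02).

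Large-subunit genes had the lower median only in the middle of the range. Between 10 and 12 it was -1.41 for 7 large-subunit genes and -0.81 for 16 small-subunit genes, and between 8 and 10 it was -1.10 for 7 and -1.10 for 8. Of the 6 snoRNP genes, 4 lay at 12 and above, with a median of -0.34, and 2 lay between 10 and 12, with a median of -1.57. No test was made of these differences between roles, whose genes are not replicates.

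**Figure D5:**
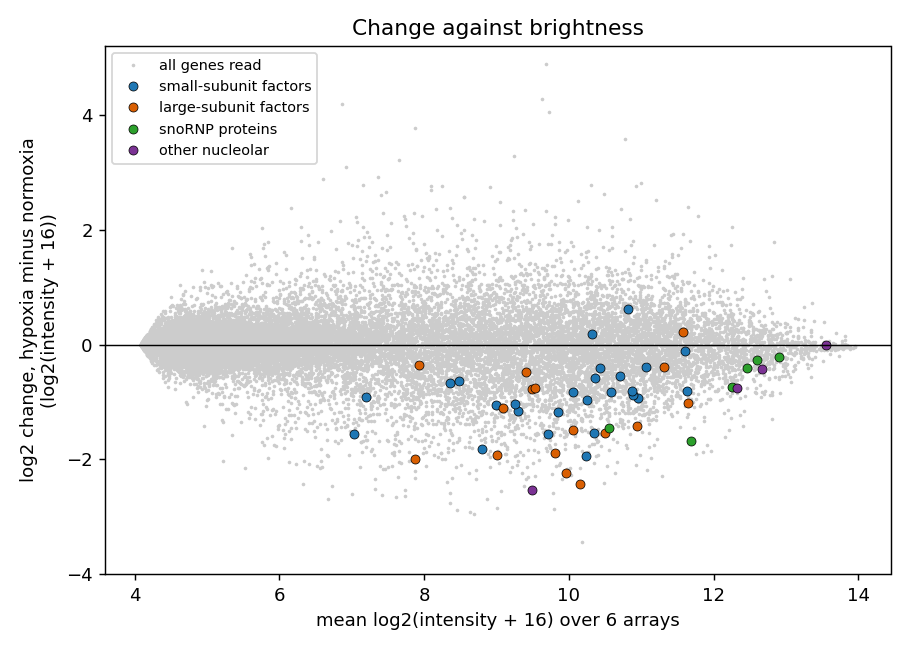
Log2 change, taken as log2(intensity + 16) in hypoxia minus normoxia, against mean log2(intensity + 16) over the 6 arrays, for all 19775 genes (grey) and the 52 assembly factors (coloured by role). The coloured points lie mostly below 0 and come closer to it at the bright end, where NPM1 is at -0.00055.

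Assembly genes beyond the list were counted in the same way. Of 73 read among 74 others, 61 fell, 3 rose and 9 did not pass, against 20.6% lower and 16.9% higher over all genes. The median log2 change of the 73 was -0.82. Small-subunit factors made up 24 of 26 lower and 1 higher, large-subunit factors 29 of 37 lower and 2 higher, and snoRNP factors 8 of 10 lower. PNO1, a partner of NOB1 in the late small subunit, averaged 443 ± 37.2 in hypoxia and 2148 ± 107 in normoxia (log2 change -2.24), and UTP25 fell by 1.42. Among large-subunit genes MAK16 and BRIX1 fell by 1.95 and 1.77, and among snoRNP genes SNU13, a core protein of the box C/D particle, and RUVBL1, an ATPase of its assembly, fell by 1.65 and 1.21 (limma adjusted p of these 6 at most 6.68e-05). With the mean of probe sets PNO1 was at -1.46 and SNU13 at -0.90, and both still passed. The 3 that rose, named after their values were seen, were FCF1, an endonuclease of the processome, at 0.67, the export adaptor NMD3 at 0.20 and ZNF622, which acts on the large subunit in the cytoplasm, at 0.17 (limma adjusted p = 0.00372, 0.0340 and 0.0489). These calls were fragile. FCF1 turned to -0.35 with the mean of probe sets (limma adjusted p = 0.0104), NMD3 did not pass in 7 of 13 alternatives, 5 of them with 1 array left out (all but hypoxia replicate 0), and ZNF622 in 10 of 13, among them each of the 6 arrays left out.

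The ribosomal proteins themselves, which these factors assemble, stood apart in their counts. Of 29 genes read among 40, 0 passed in limma and 0 had an unadjusted p under 0.05, with a median log2 change of -0.04 and a range of -0.11 to 0.04. For 10 of the 29 all hypoxia arrays lay below all normoxia arrays, as for 25.8% of all genes. For 1 they lay above, as for 22.1% of all genes, and for 18 they overlapped. RPL6 averaged 10522 ± 231 in hypoxia and 11379 ± 233 in normoxia, and RPL10A 12690.2 ± 306 in hypoxia and 13622 ± 117 in normoxia (SD, n = 3 each; limma adjusted p = 0.166 and 0.197). These genes are the brightest here, with normoxia means of 10862 to 16010 (median 12971), in the range where NPM1 lies. The highest value of any probe set was 16277 to 16549 on the hypoxia arrays and 16591 to 17537 on the normoxia arrays. Whether changes are compressed so near the top of the range, for them or for NPM1, was not tested. The band at a mean log2 intensity of 12 and above, where 30.0% of other genes fell, also holds dimmer genes. With limma given an intensity trend 4 of them passed as lower.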

How the data were processed

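Biotin-labelled RNA was measured on 6 single-colour arrays, 3 of hypoxia and 3 of normoxia. The authors deposited linear intensity values of 54613 probe sets for each array, and how they corrected background, summarised probes and scaled arrays is not stated in the labels (not given in the sources used here). Exactly 1 was the value of 2.44% to 2.58% of probe sets on an array. Groups came from the condition labels and replicate numbers from the titles.

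Names came from GEO's platform annotation, and the 41091 probe sets with 1 symbol were used. Of these, 41037 matched a RefSeq gene table (GRCh38.p14). Each gene was read by its brightest single-symbol probe set, with no filter. Log2(intensity + 16) was tested with lmFit and eBayes of limma 3.58.1 (R 4.3.3), as a two-sided comparison of the conditions without covariates, and p-values were adjusted by Benjamini-Hochberg over 19775 genes (41091 for probe sets). In simulated data of this spread, 4, 23, 41 and 49 of 50 genes changed by 0.3, 0.5, 1 and 2 (log2) were recovered. The rest of the 122 calls were 4 unchanged genes and 1 changed gene in the wrong direction. Only 50 genes of each size were changed there, whereas in the arrays 20.6% of all genes fell and 16.9% rose. The adjustment was therefore stricter in the simulation, and its recovery cannot be carried over to the arrays. Small changes may still be missed. The number of arrays limits the precision, and no detection calls were used. All 15 pairs of arrays differed (at most 1.23% identical values). Deviations of same-numbered arrays correlated at 0.24, 0.0064 and 0.21, not all over 0.1, so the numbers were not taken as pairing arrays.

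The genes, roles and lists were chosen with earlier results of these data known. Values per array are given for the 4 genes with the smallest adjusted p in each role, every gene that rose or did not pass, genes whose probe sets were called in opposite directions, and NCL, NPM1, FBL, NOB1, BYSL, PES1 and WDR12 in any case (NOP56, DKC1 and BOP1 were not analysed here), and means for the 2 with the smallest adjusted p in each list of other genes.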

Additional observations from a re-analysis of the deposited data

How the results depend on the processing

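Across 13 alternatives (a pseudocount of 1, a filter at a mean intensity of 100, median centring, quantile normalization, the mean of probe sets, an intensity trend, a replicate block and leaving out each array), the number of assembly factor genes that fell was 45 to 47. It was 45 to 46 with 1 array left out, where a group of 2 arrays shares the spread of the whole fit. Their median log2 change of -0.85 was -0.74 with the mean of probe sets, -0.92 with median centring, -0.80 after quantile normalization, and -0.88 to -0.83 with 1 array left out. The number that rose was 1 with the mean of probe sets or median centring, and 1 to 2 with 1 array left out. Other assembly genes that rose numbered 0 with the mean of probe sets, 1 with median centring and 1 to 2 with 1 array left out. Ribosomal protein genes that fell numbered 4 with the intensity trend, 4 with the mean of probe sets and 1 with median centring, but 0 in the other alternatives. TSR1 reversed to -0.91 with the mean of probe sets. NPM1, never called, turned to 0.034 after quantile normalization and ranged from -0.040 to 0.021 with 1 array left out, above 0 without hypoxia replicate 0, normoxia replicate 0 or normoxia replicate 2. The cause of these moves was not tested. The replicate block gave 47 falls and 2 rises among assembly factors, 26 lower other probe sets and 4140 lower genes in all, and hypoxia replicate 1 correlated best with normoxia replicate 2 (0.11). Dim genes limit the sizes given for RRP9, NOC4L and URB2.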

Other observations

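The change was also read by promoter letters in genes that are neither listed nor among the other assembly genes. Of 1632 such genes with CACGTG in a window 473 fell (29.0%), with a median log2 change of -0.05, and of 13646 with a window but no CACGTG 2809 fell (20.6%), with a median of 0.0015. The shares that rose were 18.8% and 17.4%. The groups differed in brightness, with a median of the mean log2 intensity of 8.41 with the letters and 7.18 without. The difference between the shares, and the part of brightness in it, were not tested. Among the listed factors the median brightness was 10.35 with the letters and 10.24 without.

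Of the 62 other assembly genes with a window, 21 hold CACGTG (33.9%), against 3 of 25 ribosomal protein genes (12%).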
